A study of Mus musculus with 9 samples.

Results

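Transcripts of 35 genes that p53 is known to act on or through were measured in the small intestine of irradiated mice. The set was chosen by name rather than by a threshold on measured values, but with earlier results of these data known. It runs from Trp53 itself to genes of cell cycle arrest, cell death, DNA repair and metabolism. All 35 were found among the 19360 genes of the table, 34 by symbol and Tigar by its identifier ENSMUSG00000038028, under which the table carries an older symbol. All 35 passed the filter on low values, and none was at 0 in any library.

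The mice were BALB/c, an inbred strain, with 3 mice in each of 3 groups and 1 RNA-seq library per mouse. Every mouse received total body irradiation (TBI) at 9 Gy, and tissue was taken 12 h later. The TBI group was irradiated and nothing else was given. The 3pRNA + TBI group had 3pRNA 1 day before, a double-stranded triphosphate RNA made by in vitro transcription that activates the cytosolic RNA sensor RIG-I and with it type I interferon production. The 3pRNA + anti-IFNAR1 + TBI group, called blockade below, had the same 3pRNA and, 2 days before TBI, an antibody that blocks the type I interferon receptor. The age of these mice is not given in the labels. No unirradiated group, no group with the 3pRNA carrier alone and no group with a control antibody are among these libraries. The effect of irradiation itself on p53 target genes can therefore not be measured here, and the comparisons below are between irradiated mice that differed in what they had before.

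p53 is a transcription factor that is held low in unstressed cells by the ubiquitin ligase MDM2 and is stabilised after DNA damage through kinases such as ATM and CHK2. It binds DNA as a tetramer on a pair of similar decamers and raises genes that stop the cell cycle, start apoptosis, repair DNA or feed back on p53. In the irradiated small intestine, crypt cells are known for both arrest through p21, the product of Cdkn1a, and apoptosis through PUMA, the product of Bbc3. p53 is regulated mainly as a protein, so Trp53 transcript is not a measure of p53 activity.

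The sequence that p53 reads was looked for in the promoters of these genes. Most were named as known p53 targets, and such sites may be part of why they are known. The shares below are therefore a description and not independent support for the choice. RefSeq promoter windows of 300 bases (250 before and 50 after a start site, build GRCm38.p6) were at hand for 27 of the 35. An exact match to the p53 decamer consensus was found in at least 1 window of 12 of these 27 genes (44.4%), against 9.6% of 27025 genes. These were Trp53, Mdm2, Ppm1d, Ccng1, Cdkn1a, Gtse1, Ckap2, Bax, Aen, Ei24, Polk and Sesn1. A pair of decamers with at most 1 mismatch in all and a spacer of at most 13 bases was found in 5 of the 27 (18.5%), against 1.2% of all genes. Both strands were searched, and a pair may contain the single decamer counted before. The 5 pairs are shown because they are the stretches of DNA in these windows that come closest to a full p53 element. The decamers are in capitals and the spacer is in lower case, read 5′ to 3′ on the strand of the gene.
Cdkn1a: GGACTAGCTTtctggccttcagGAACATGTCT
Bax: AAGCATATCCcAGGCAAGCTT
Ccng1: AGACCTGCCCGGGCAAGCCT
Gtse1: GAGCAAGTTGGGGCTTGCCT
Polk: GAACTAGCCTcAAACTTATTC
The Cdkn1a pair (chr17:29090906-29090937, plus strand) had 0 mismatches and a spacer of 12 bases, and its first base lay at -73 from the start site of the more upstream of the gene's windows. The Bax pair (chr7:45467090-45467110, minus strand) had a spacer of 1 base and began at -212. The Ccng1 pair (chr11:40755462-40755481, minus strand) had no spacer and began at -195. The Gtse1 pair (chr15:85859945-85859964, plus strand) had no spacer either and began at -1, across the start site. The Polk pair (chr13:96519398-96519418, minus strand) had a spacer of 1 base and began at -231. A match is a description of the letters, and elements outside these windows, such as those in introns, were not searched.

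The libraries held between 6487053 and 19946586 reads in genes, as rebuilt from the scaled values. For this, the smallest value above 0 in each library was taken as 1 read. Values below are scaled counts, in which differences in library depth have been divided out by a size factor. Summed, the 35 genes made up 0.353 to 0.383% of the scaled total in every library, and the mean of log2(scaled count + 1) over them lay between 8.99 and 9.19. The range was 9.12 to 9.19 in TBI, 8.99 to 9.13 in 3pRNA + TBI and 9.05 to 9.16 in blockade, so the 3 groups overlapped. For comparison, the mean over 13 interferon-stimulated genes was 8.23 to 8.80 in TBI, 10.37 to 10.79 in 3pRNA + TBI and 7.0 to 8.74 in blockade, and 10 of the 13 were higher after 3pRNA and all 13 lower with blockade.

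**Figure D1:**
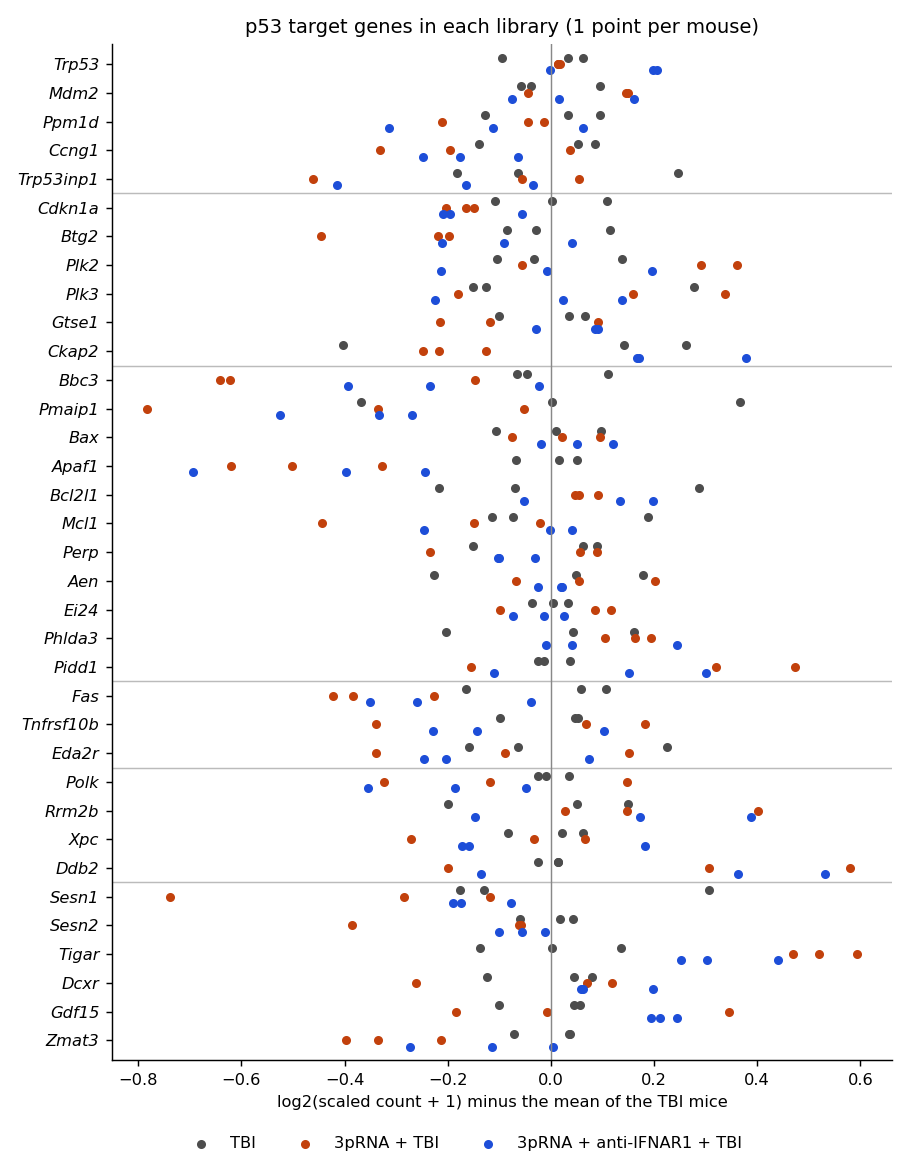
Each point is 1 mouse, placed by its log2(scaled count + 1) minus the mean of the TBI mice for that gene, with the genes in rows grouped by role. Most rows overlap between the 3 groups, and Tigar to the right and Apaf1 to the left are the rows in which all 3 libraries of 3pRNA + TBI and all 3 of blockade lie beyond those of TBI.

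Levels were compared between genes as scaled counts per kilobase of transcript, averaged over the 9 libraries. Cdkn1a (2481) and Ccng1 (2463) were highest, each with 98.3% of genes below it, followed by Perp (1980) and Mcl1 (1487). Bax (892), Ei24 (790), Btg2 (674), Dcxr (586) and Trp53inp1 (521) came next. Cdkn1a and Ccng1 could not be put in order, since the group SDs per kilobase (45.2 to 201 for Cdkn1a and 154 to 310 for Ccng1) were larger than their distance. At the low end were Ddb2 (22.4), Rrm2b (22.7), Tigar (36.1), Pidd1 (38.1) and Ppm1d (39.4), with 23.7 to 34.1% of genes below them. Ddb2 and Rrm2b also did not differ beyond their spread. The genes thus covered a range of levels in all 3 groups, and the order was led by an inhibitor of the cell cycle, a feedback cyclin and a membrane protein of epithelial junctions.

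**Figure D2:**
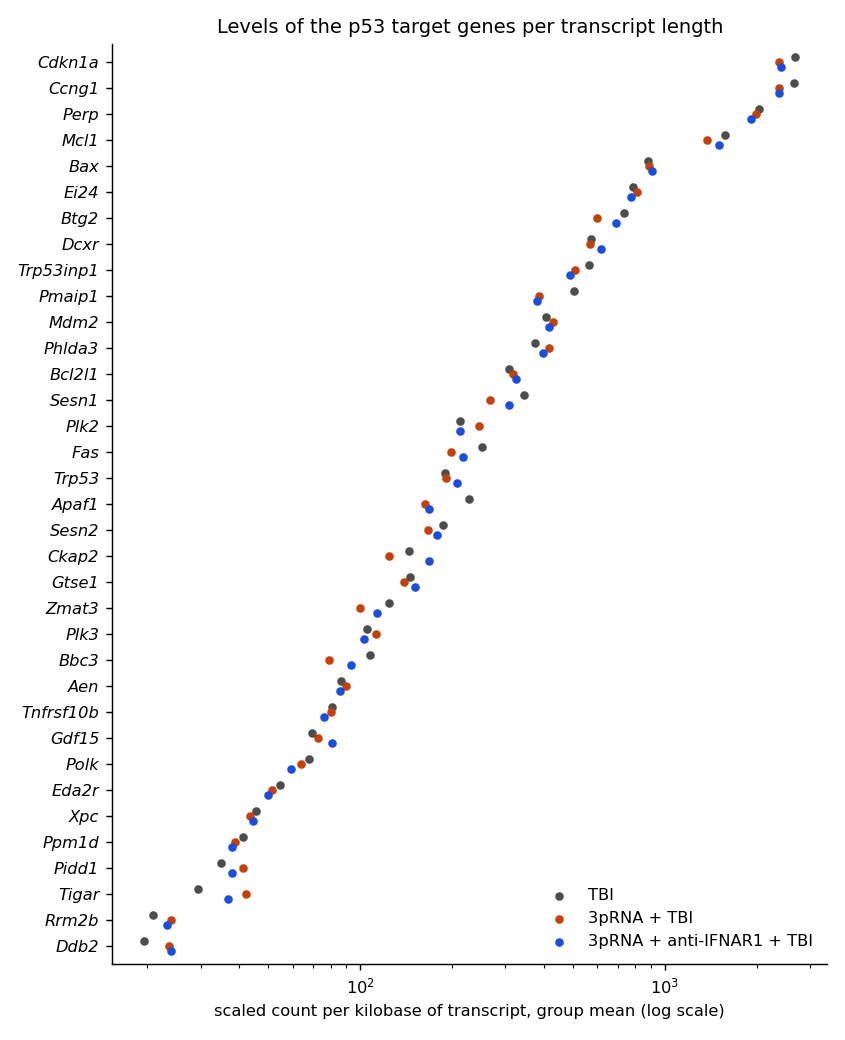
The horizontal axis is the group mean of the scaled count per kilobase of transcript, on a log scale, with 1 point per group and the genes ordered by the mean of all 9 libraries. Cdkn1a and Ccng1 lie at the top (2481 and 2463 over all libraries), and Ddb2 and Rrm2b at the bottom (22.4 and 22.7).

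The first comparison asks what 3pRNA before TBI did to these transcripts. Tigar rose, Apaf1 fell, and none of the other 33 passed the test (limma over 14199 genes, adjusted p under 0.05). Of all genes tested, 3.48% were called higher and 2.11% lower, and 1 of 35 in each direction is 2.9%, near both shares. The median log2 change of the 35 was -0.08, against -0.02 for all genes, and with libraries scaled to equal totals it was 0.03 against 0.09. That scaling moved the median of all genes by 0.11. It multiplies each library by 1 number, so the distance of the 35 below that median, 0.06, could not change with it. With 1 library left out, the median of the 35 minus that of all genes ranged from -0.098 (without 3pRNA + TBI replicate 2) to 0.009 (without 3pRNA + TBI replicate 3). With voom weights it was -0.011. Of all genes, 494 were higher and 300 lower, and with equal totals 803 were higher and 175 lower. With 1 library left out, these counts ranged from 94 (without 3pRNA + TBI replicate 1) to 680 (without TBI replicate 2) higher and from 45 (without 3pRNA + TBI replicate 1) to 554 (without 3pRNA + TBI replicate 2) lower, so the background shares depend on single libraries. Without TBI replicate 1 they were 103 and 80, without TBI replicate 3 131 and 88, and without 3pRNA + TBI replicate 3 100 and 74. Among the 35, 21 changes were below 0 (60.0%) and 14 above, where 54.0% of all genes were below 0.

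With the main scaling, the intervals bound how large a change in the bulk tissue could have been missed. Their median half-width was 0.26 for the 35 and 0.30 for all genes, so part of the contrast below comes from wider intervals elsewhere. The 95% interval of the change excluded 2-fold in either direction for all 35 genes, against 80.6% of all genes tested, and excluded 1.5-fold for 27 of them, against 59.6%. The 8 whose intervals reached 1.5-fold or more were Apaf1, Bbc3, Pmaip1, Sesn1, Fas, Pidd1, Ddb2 and Tigar. Groups that did not overlap, meaning that every library of 1 group lay above every library of the other, were found for 1 gene higher (Tigar, against 12.2% of all genes) and for 6 lower (Apaf1, Zmat3, Fas, Bbc3, Btg2 and Cdkn1a, against 13.0% of all genes). These 6 are 17.1% of the 35. At an unadjusted p under 0.05, 1 gene was higher and 6 were lower, where 11.1% of all genes passed in each direction.

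**Figure D3:**
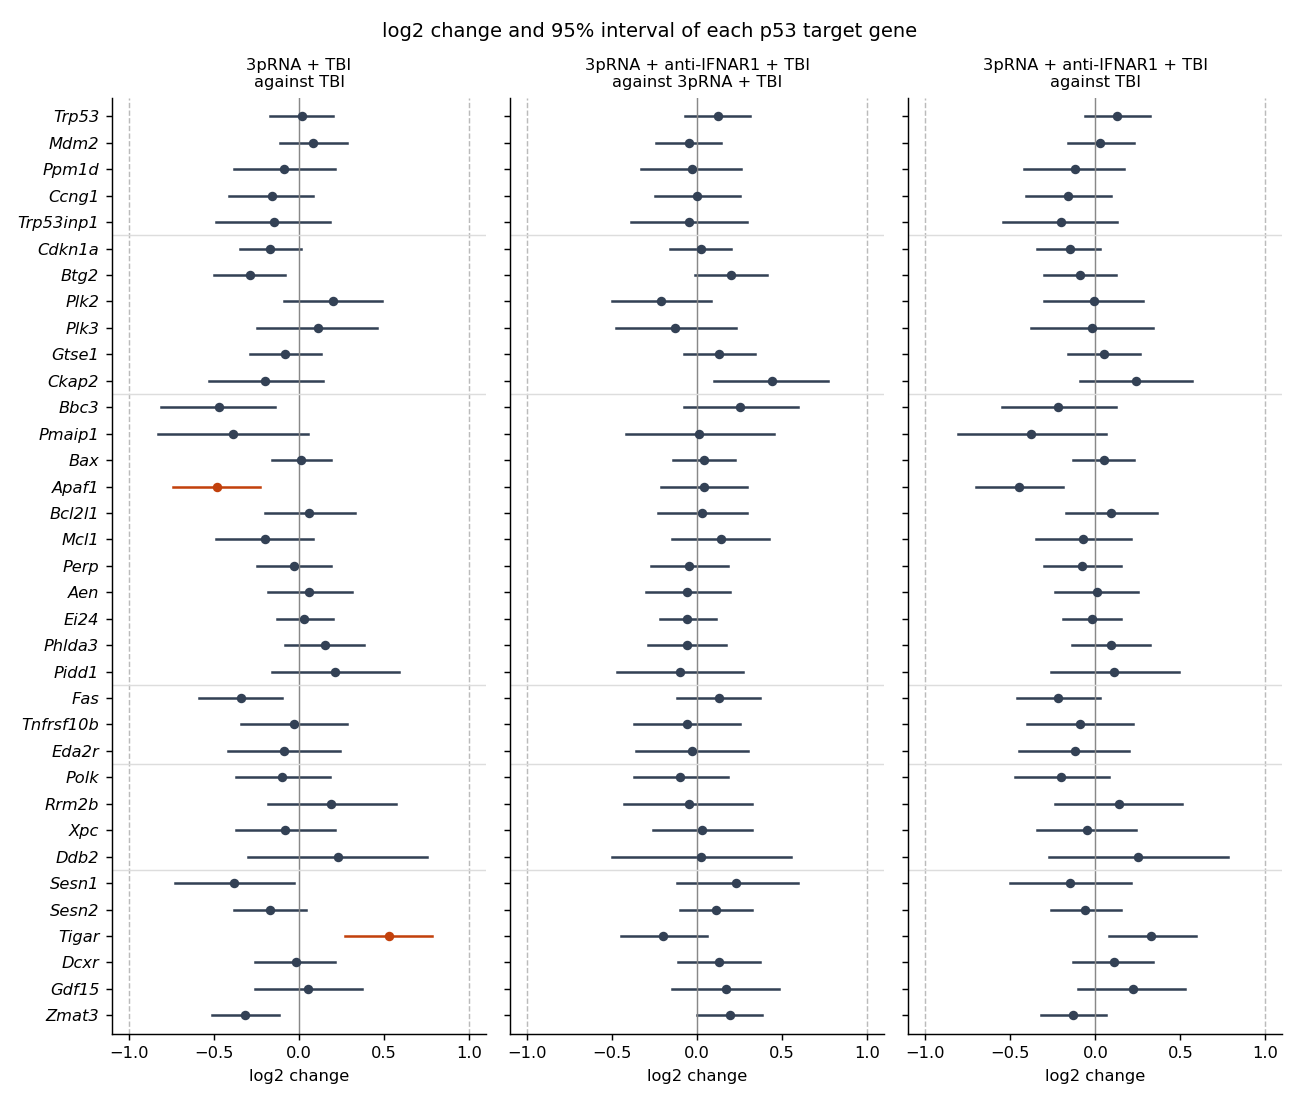
Each panel is 1 comparison, and each row gives the log2 change of 1 gene with its 95% interval, in orange where the adjusted p was under 0.05 and with dashed lines at 2-fold. Every interval lies inside the dashed lines, and only Tigar and Apaf1 in the first panel are orange.

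Tigar, whose product lowers a fructose bisphosphate that drives glycolysis, is on chromosome 6. Its scaled counts were 117, 96.8 and 107 in TBI, 153, 148 and 161 in 3pRNA + TBI, and 132, 127 and 145 in blockade. The 3 groups did not overlap, with TBI lowest, blockade between and 3pRNA + TBI highest. From TBI (107 ± 10.2, SD, n = 3) to 3pRNA + TBI (154 ± 6.70) the log2 change was 0.53 (SE 0.12, adjusted p = 0.030 by limma), 1.44-fold. It was called in 4 of the 9 fits that each leave out 1 library, and the call was lost without TBI replicate 1 (adjusted p = 0.060), 2 (0.063) or 3 (0.081) and without 3pRNA + TBI replicate 1 (0.092) or 3 (0.098).

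Apaf1, the scaffold of the apoptosome that activates caspases once cytochrome c has left mitochondria, is on chromosome 10. Its scaled counts were 1508, 1544 and 1423 in TBI, 1052, 1188 and 968.9 in 3pRNA + TBI, and 921.0, 1131 and 1258 in blockade. All 3 TBI libraries lay above all 6 others, and the 2 groups that had 3pRNA overlapped. The change after 3pRNA, from 1492 ± 61.8 to 1069 ± 110 (SD, n = 3), was -0.48 on the log2 scale (SE 0.11, adjusted p = 0.037 by limma), or 0.71-fold. The call was lost without TBI replicate 1 (adjusted p = 0.11), 2 (0.073) or 3 (0.080) and without 3pRNA + TBI replicate 1 (0.11) or 3 (0.12). The size stayed between -0.56 and -0.42 in these fits.

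**Figure D4:**
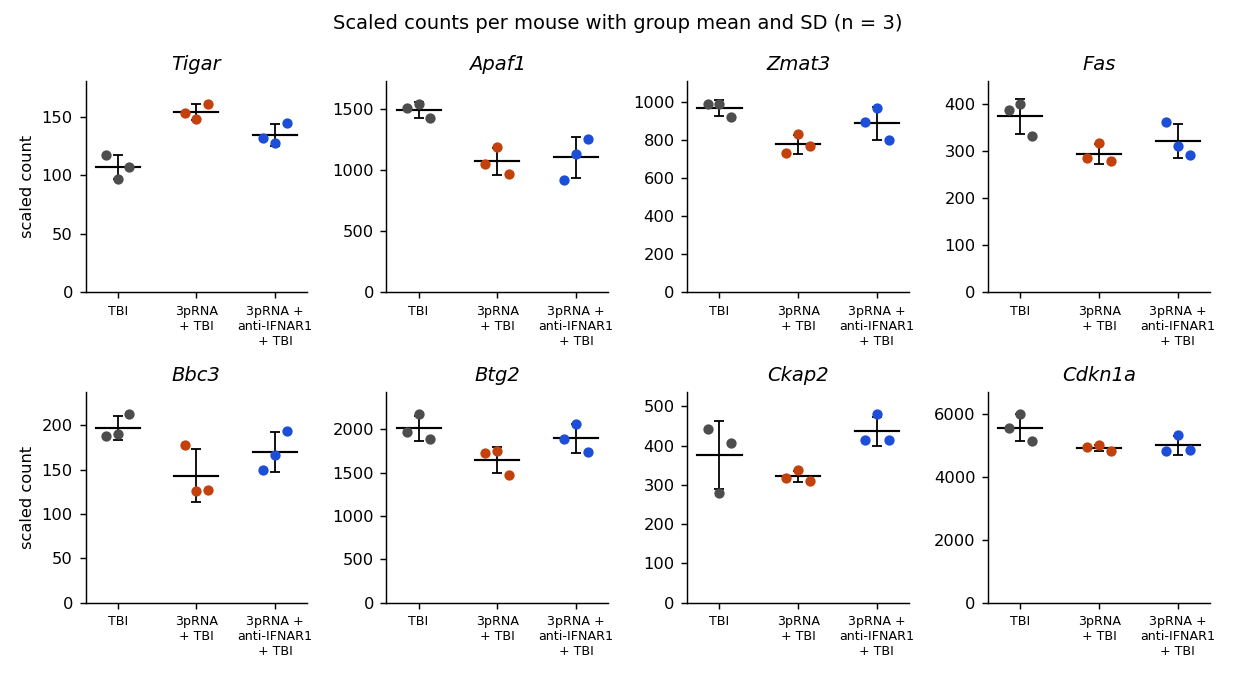
Scaled counts of 8 genes, with 1 point per mouse, a bar at the group mean and whiskers for the SD (n = 3), each axis starting at 0. Tigar is higher and Apaf1, Zmat3, Fas, Bbc3, Btg2 and Cdkn1a are lower in all 3 mice of 3pRNA + TBI than in any TBI mouse, and Ckap2 is higher in all 3 blockade mice than in any 3pRNA + TBI mouse.

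In the group of p53 and its feedback, 0 of 5 genes were called after 3pRNA, and the 95% interval of each excluded 1.5-fold. Trp53 had 361.7, 331.1 and 368.9 in TBI, 357.1, 357.0 and 357.7 in 3pRNA + TBI and 352.9, 407.6 and 405.6 in blockade. The groups overlapped, and the change after 3pRNA was 0.02 (SE 0.09, adjusted p = 0.94). Mdm2, the ligase that degrades p53, had group means of 1276 ± 74.9, 1353 ± 102 and 1308 ± 109 (SD, n = 3) in the same order. Ccng1 encodes cyclin G1, which acts with a phosphatase on MDM2. It had 9853, 9633 and 8430 in TBI, 8107, 9522 and 7377 in 3pRNA + TBI and 8221, 8883 and 7813 in blockade, with a change of -0.16 after 3pRNA (SE 0.11, adjusted p = 0.43). Its lowest library was 3pRNA + TBI replicate 3. Trp53inp1, whose product promotes phosphorylation of p53, had 2895, 3591 and 2669, then 2912, 3143 and 2198, then 2702, 2955 and 2270, with a change of -0.15 (SE 0.15, adjusted p = 0.61). Ppm1d, the phosphatase WIP1 that switches p53 signalling off, lay between 95.9 and 127.6 in all libraries.

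Of the 6 cell cycle genes, 0 were called after 3pRNA. Cdkn1a, on chromosome 17, had 5556, 5981 and 5145 in TBI, 4953, 5004 and 4821 in 3pRNA + TBI and 4801, 5335 and 4843 in blockade. The lowest TBI mouse was above the highest 3pRNA + TBI mouse by a small step, and the change was -0.17 (SE 0.08, adjusted p = 0.25), with a 95% interval of -0.35 to 0.01. Btg2, an antiproliferative partner of the mRNA deadenylation machinery, had 1965, 2172 and 1890, then 1722, 1749 and 1473, then 1884, 2064 and 1733. TBI and 3pRNA + TBI did not overlap, the change was -0.29 (SE 0.10, adjusted p = 0.10), and blockade overlapped with both. Ckap2, a protein of the mitotic spindle, had 442.4, 278.5 and 407.2 in TBI, 317.0, 338.1 and 310.5 in 3pRNA + TBI and 415.2, 479.5 and 414.2 in blockade. TBI replicate 2 was the lowest of the 9 libraries for this gene and the other TBI mice were among the higher ones, so the change after 3pRNA was -0.20 (SE 0.15, adjusted p = 0.49), and without that library it was -0.40 (adjusted p = 0.047). Plk2 and Plk3, polo-like kinases of the stress response, ranged over 512.6 to 763.2 and 210.6 to 311.6. Gtse1, which binds microtubules and p53, ranged over 338.7 to 419.2. The groups overlapped in these last 3 genes.

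Of the 11 genes of mitochondrial and other cell death, Apaf1 was the only one called. Bbc3 had 187.7, 190.2 and 212.3 in TBI, 177.2, 125.5 and 127.3 in 3pRNA + TBI and 149.4, 166.8 and 193.3 in blockade. TBI was above 3pRNA + TBI in every mouse, but 3pRNA + TBI replicate 1 was close to TBI, and the change was -0.47 (SE 0.15, adjusted p = 0.092). Pmaip1, which encodes the death activator NOXA, had 1043, 1735 and 1348, then 1067, 1298 and 782.3, then 1068, 1116 and 935.4. It had the widest range of all 35, 2.22-fold from 3pRNA + TBI replicate 3 to TBI replicate 2, and its change of -0.39 (SE 0.20, adjusted p = 0.28) lay within that spread. Bax, which opens the mitochondrial outer membrane, was among the steadiest, with 706.6 to 827.7 over the 9 libraries and a change of 0.01 (SE 0.08).

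The remaining death genes overlapped between groups. Bcl2l1 and Mcl1, which hold apoptosis back, had means of 789 ± 146 and 5402 ± 632 (SD, n = 3) in TBI and 817 ± 13.4 and 4700 ± 685 in 3pRNA + TBI. Perp, a junction protein with a part in apoptosis, had 3963 ± 354 and 3890 ± 464. Aen, a nuclease, Ei24, a membrane protein of the endoplasmic reticulum, and Phlda3, an inhibitor of AKT, had changes of 0.06, 0.03 and 0.15. Pidd1, an adaptor that activates a caspase, had 118 ± 2.76 in TBI and 139 ± 29.9 in 3pRNA + TBI, and its wider spread after 3pRNA came from replicates at 105.4 and 163.5.

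Of the 3 death receptors, 0 were called. Fas had 387.8, 400.7 and 331.8 in TBI, 285.0, 317.9 and 277.6 in 3pRNA + TBI and 362.3, 310.6 and 291.7 in blockade. TBI and 3pRNA + TBI did not overlap, with a change of -0.34 (SE 0.11, adjusted p = 0.091). Tnfrsf10b, the mouse receptor for the death ligand TRAIL, had 240.1, 266.6 and 265.7, then 269.8, 291.9 and 203.0, then 232.9, 276.2 and 219.2, a change of -0.03 (SE 0.14, adjusted p = 0.93). Eda2r, a receptor for ectodysplasin on chromosome X, had 246.7, 230.9 and 301.6, then 203.9, 286.6 and 242.5, then 271.7, 224.1 and 217.5, a change of -0.09 (SE 0.15, adjusted p = 0.77). For both of these the spread within a group was larger than the difference between groups.

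Of the 4 genes of DNA repair and nucleotide supply, 0 were called. Polk, a polymerase that copies past DNA lesions, had 294.0, 285.3 and 281.9 in TBI, 264.5, 317.9 and 229.3 in 3pRNA + TBI and 277.6, 252.3 and 224.4 in blockade, with a change of -0.10 after 3pRNA (SE 0.12, adjusted p = 0.70). Rrm2b, a subunit of ribonucleotide reductase, had 98.2, 105.3 and 82.4, then 105.1, 125.5 and 96.6, then 107.0, 85.5 and 124.3, a change of 0.19 (SE 0.17, adjusted p = 0.56). Ddb2, which recognises ultraviolet lesions, had 42.9, 44.1 and 44.1, then 54.3, 37.9 and 65.8, then 56.5, 63.6 and 39.7, a change of 0.23 (SE 0.24, adjusted p = 0.62). The TBI mice agreed closely for this gene while the other groups ranged on both sides of them. Xpc, which finds distorted DNA for nucleotide excision repair, lay between 137.2 and 188.2.

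Of the 6 genes of metabolism, secretion and RNA, Tigar alone was called. Zmat3, an RNA-binding zinc finger protein that acts on splicing, had 991.1, 990.0 and 918.8 in TBI, 732.9, 833.0 and 765.9 in 3pRNA + TBI and 892.8, 968.4 and 799.1 in blockade. TBI and 3pRNA + TBI were apart, with a change of -0.32 (SE 0.09, adjusted p = 0.060), and blockade overlapped with both. Sesn1, an inhibitor of the growth kinase complex mTORC1, had 1152, 1610 and 1190, then 1200, 1068 and 780.2, then 1154, 1234 and 1141. Its change was -0.38 (SE 0.16, adjusted p = 0.19), the groups overlapped, and TBI replicate 2 and 3pRNA + TBI replicate 3 were its extremes. Sesn2, with a like function, had 649 ± 23.8 and 580 ± 72.6 (SD, n = 3). Dcxr, a reductase of sugars and carbonyls, had 512 ± 37.9 and 506 ± 69.8. Gdf15, a secreted stress hormone, had 107 ± 6.47 and 112 ± 21.7.

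The second comparison asks what blocking the interferon receptor did in mice that had 3pRNA. None of the 35 was called by limma in either direction, while 0.190% of all genes were called higher and 1.23% lower. These shares are 27 and 174 genes, and with 1 library left out there were 10 to 36 and 81 to 186, the fewest without 3pRNA + TBI replicate 1. Without blockade replicate 1, 2 or 3 there were 11, 16 and 15 higher and 96, 165 and 114 lower. At an unadjusted p under 0.05 there was 1 gene, Ckap2, where 5.1% of all genes were higher and 5.5% lower. Limma with voom weights also called 0 of the 35. The change of Ckap2, from 322 ± 14.4 to 436 ± 37.4 (SD, n = 3), was 0.44 (SE 0.15, adjusted p = 0.31), and it was the only gene higher in every blockade mouse than in every 3pRNA + TBI mouse, against 8.25% of all genes. Without TBI replicate 2, which enters this comparison only through the shared estimate of the spread, its adjusted p was 0.046. Tigar was the only gene lower in every blockade mouse, against 7.25% of all genes, with a change of -0.20 (SE 0.12, adjusted p = 0.63). The median change of the 35 was 0.02 and that of all genes 0.00. The 95% interval excluded 2-fold for all 35 and 1.5-fold for 32. For Apaf1 the change was 0.04 (SE 0.11, 95% interval -0.21 to 0.29), for Cdkn1a 0.02 (-0.16 to 0.20), for Zmat3 0.19 and for Btg2 0.20.

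The third comparison sets blockade against TBI, which shares its libraries with the other comparisons. None of the 35 was called, and of all genes 0% were called higher and 0% lower by limma, with voom weights as well. Without TBI replicate 2, the TBI library with high smooth muscle markers, 314 genes were called higher and 45 lower, none of them among the 35. At an unadjusted p under 0.05 there were 902 genes higher and 851 lower in all, and 1 of the 35 in each direction. These were Tigar, with a change of 0.33 (SE 0.12, adjusted p = 0.27), and Apaf1, with -0.45 (SE 0.11, adjusted p = 0.19). Groups did not overlap for Tigar and Gdf15, which were higher with blockade (7.01% of all genes were), and for Apaf1 and Polk, which were lower (12.1% of all genes were). Gdf15 had 99.7, 110.4 and 111.4 in TBI and 127.0, 124.1 and 122.5 in blockade, a change of 0.22 (SE 0.14, adjusted p = 0.56). The change of Polk was -0.20 (SE 0.12, adjusted p = 0.54). The median of the 35 was -0.05 against -0.02 for all genes, and with equal totals it was 0.05 against 0.08. The 95% interval excluded 2-fold for all 35 and 1.5-fold for 31.

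The genes did not vary evenly over the libraries. The lowest of the 9 values came from 3pRNA + TBI replicate 3 for 13 of the 35 and the highest from TBI replicate 2 for 11. Within its group, replicate 3 was the lowest for 16 of the 35 in TBI, 22 in 3pRNA + TBI and 22 in blockade. The shares of all genes were 39.9, 41.7 and 35.5%. Replicate 2 was the highest in its group for 20, 20 and 21 of the 35 in the same order, and for 42.4, 39.6 and 36.3% of all genes. The same replicate numbers were thus the extremes in all 3 groups, and why was not tested. Within groups the median SD of the 35 on the log2 scale was 0.16, and 0.17 for all genes. Set against the 500 genes of the nearest level, 10 of the 35 had a smaller SD than the median of those genes. Tigar (SD 0.10), Cdkn1a (0.08), Ei24 (0.08) and Trp53 (0.08) were the steadiest by this measure, and Pmaip1 (0.31), Trp53inp1 (0.23) and Sesn1 (0.24) the most variable.

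Tissue makeup also differed between libraries. The mean of log2(scaled count + 1) over 9 enterocyte markers was 11.57 to 12.37 in TBI, 11.39 to 11.71 in 3pRNA + TBI and 11.54 to 11.74 in blockade, but Fabp1 and Lct, which mark enterocytes of the upper small intestine most, were near absent in every library (scaled counts of 3.45 to 15.1 and 0 to 11.9). Of the other 7, which were tested, 0 were called by limma after 3pRNA, with 4 lower at an unadjusted p under 0.05. All 4 Paneth cell markers were lower in every 3pRNA + TBI mouse than in any TBI mouse, with 1 of them called lower, and of 5 goblet cell markers 1 was called lower after 3pRNA and 1 higher with blockade against 3pRNA + TBI. Of 5 crypt base and stem markers 1 was called higher after 3pRNA, but 3 of the 5 changes were below 0, and they ranged from -0.84 to 0.66. Of 7 macrophage and neutrophil markers 1 was called higher after 3pRNA and 1 lower with blockade against 3pRNA + TBI. The mean of log2(scaled count + 1) over 11 smooth muscle markers was 7.72, 9.87 and 7.73 in TBI replicates 1, 2 and 3, 10.12 to 10.47 in 3pRNA + TBI and 9.63 to 10.38 in blockade, and 5 of the 11 were called higher after 3pRNA. Of 8 adipocyte markers 6 were called higher. In each TBI library 5 of these 8 were at 0, among them Adipoq and Plin1, and their summed scaled count was 481 to 730 in TBI, 1279 to 2950 in 3pRNA + TBI and 526 to 2895 in blockade. Of 9 enteric neuron and glia markers tested 6 were higher, and of 8 T and NK cell markers 4 were lower. In bulk tissue, fewer cells of a type and less RNA per cell cannot be told apart. The part of these markers in the changes of Tigar and Apaf1 was not tested. The TBI library with high smooth muscle markers, replicate 2, had the lowest Tigar and the highest Apaf1 of its group. Against that library alone, the changes were 0.67 for Tigar and -0.53 for Apaf1. These sizes rest on 1 TBI mouse, so the spread of that group could not be measured.

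**Figure D5:**
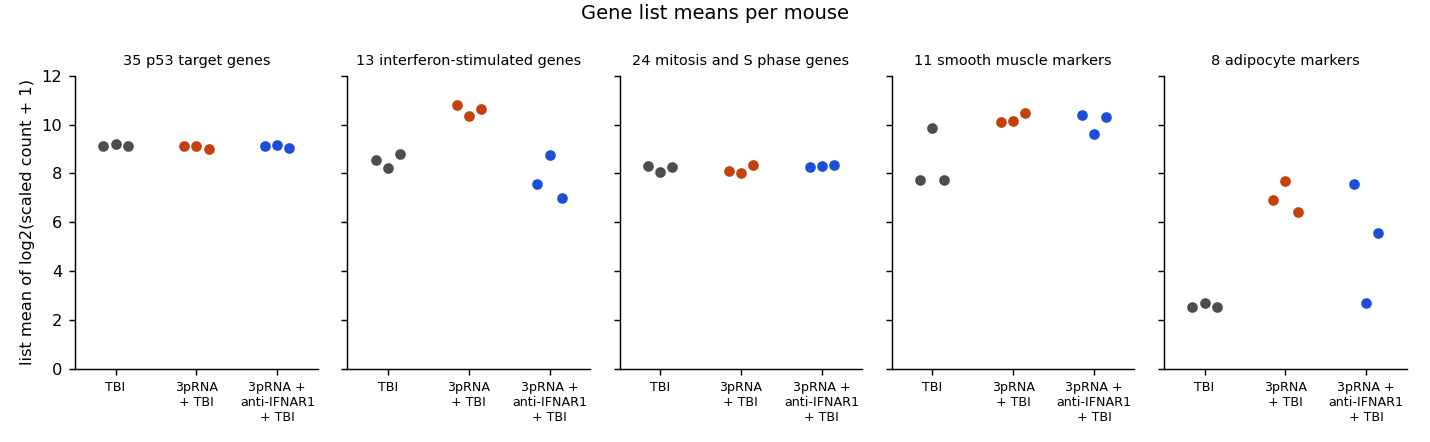
Each point is the mean of log2(scaled count + 1) over a gene list in 1 mouse, for the 35 p53 target genes, 13 interferon-stimulated genes, 24 genes of mitosis and S phase, 11 smooth muscle markers and 8 adipocyte markers. The mean of the p53 target genes lies between 8.99 and 9.19 in all mice, while those of interferon-stimulated genes and of muscle and fat markers differ by far more. This mean covers genes that moved in both directions, and single ones ranged up to 2.22-fold between libraries (Pmaip1).

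The wider pathway was described from further lists. Of 17 kinases and regulators upstream of p53, such as Atm, Chek2 and Mdm4, 0 were called by limma in any comparison. At an unadjusted p under 0.05, 4 were lower after 3pRNA, where 11.1% of all genes were. Atm, the kinase that signals DNA breaks, had 192 ± 4.03 in TBI and 139 ± 46.5 in 3pRNA + TBI (SD, n = 3), a change of -0.53 (SE 0.22, adjusted p = 0.20). Among 37 other reported p53 targets, 23 changes after 3pRNA were above 0 and 14 below, where 54.0% of all genes were below. At an unadjusted p under 0.05, 5 of them were higher and 2 lower, where 11.1% of all genes passed in each direction. This list also holds interferon-stimulated genes, such as Tap1 and Irf9 below, so its upward changes cannot be read as those of p53 targets alone. Of the 37, 1 was called lower after 3pRNA and 2 were called lower with blockade against 3pRNA + TBI. The first was Ddit4, an inhibitor of mTORC1 that also answers to hypoxia and glucocorticoids. Its scaled counts were 714.6, 679.2 and 718.1 in TBI, 472.9, 390.8 and 414.8 in 3pRNA + TBI and 396.4, 447.2 and 469.4 in blockade. All TBI mice were above all others, and the fall after 3pRNA was -0.73 (SE 0.09, adjusted p = 0.0041 by limma), called in all 9 fits that leave out 1 library. Against TBI replicate 2 alone, the TBI library with high smooth muscle markers, the change was -0.68. That size rests on 1 TBI mouse, so it does not show that the fall holds apart from tissue makeup.

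The genes lower with blockade were Tap1, the peptide transporter of antigen presentation, and Irf9, the DNA-binding subunit of the interferon-activated factor, and both are known as interferon-stimulated genes. Tap1 had 1688, 1326 and 1611 in 3pRNA + TBI and 617.5, 950.7 and 781.8 in blockade, a change of -0.99 (SE 0.17, adjusted p = 0.017). Irf9 had 999.2, 968.0 and 892.1, then 524.6, 721.4 and 409.0, a change of -0.83 (SE 0.17, adjusted p = 0.037). With 1 library left out, Tap1 was called in 5 of 9 fits (adjusted p up to 0.099) and Irf9 in 2 of 9 (up to 0.18). The calls were lost without replicate 1 or 3 of either 3pRNA group for both genes, and for Irf9 also without 3pRNA + TBI replicate 2 or TBI replicate 1 or 3.

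Of 11 further BCL2 family genes, Bid was lower after 3pRNA. Its product, when cleaved, carries a death receptor signal to mitochondria. It had 273.6, 244.5 and 297.0 in TBI and 203.0, 203.1 and 199.7 in 3pRNA + TBI, a change of -0.42 (SE 0.09, adjusted p = 0.032). The call was lost without TBI replicate 1 or 3 and without 3pRNA + TBI replicate 1 or 3 (adjusted p up to 0.11). Bid was not called with libraries scaled to equal totals either. Against TBI replicate 2 alone, which rests on 1 TBI mouse, its change was smaller, at -0.27. Of 11 caspase and caspase inhibitor genes 0 were called in any comparison. At an unadjusted p under 0.05, 2 were lower after 3pRNA, where 11.1% of all genes were. Of 24 genes of mitosis and S phase, many of which p53 is known to hold down through p21, 0 were called. Their median changes were -0.14 after 3pRNA, 0.21 with blockade against 3pRNA + TBI and 0.11 with blockade against TBI. With blockade against 3pRNA + TBI, 7 of the 24 were higher at an unadjusted p under 0.05, against 5.1% of all genes. The mean of log2(scaled count + 1) over the 24 was 8.08, 8.02 and 8.33 in 3pRNA + TBI and 8.27, 8.32 and 8.36 in blockade, so these groups overlapped.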

How the data were processed

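The authors mapped poly(A) reads of 9 mice with STAR, used HTSeq for gene counts and scaled these by DESeq size factors, with build mm9 per the labels. The deposited signal is the scaled count, to which the authors had added 1. After this 1 was taken off, log2(scaled count + 1) was modelled for all 3 groups at once with limma 3.58.1 (R 4.3.3, trended variance). Testing was limited to the 14199 genes that averaged 10 or more, in 3 comparisons, and Benjamini-Hochberg adjusted p under 0.05 was a call. The fit was tested on simulated data. Which gene models and strand setting the counting used was not found in the labels or methods. The mice are separate animals, the labels do not say what the replicate numbers stand for, and no batch is labelled. Depth as rebuilt from the scaled values was 6487053 to 19946586 reads, which limits low genes most.

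The authors' own tables of log2 ratios and p-values were not used. Levels per kilobase used the longest protein-coding transcript of GENCODE M21. The 35 genes and all lists, which came from general knowledge, were chosen with earlier results of these data known. Full statistics are given for called genes and for those with the smallest p in any comparison, up to 3 a role. Ckap2, Gdf15, Bax and Atm have further values chosen after these were seen. Alternatives were other pseudocounts, filters, scalings, moderation, a replicate block, 2 groups alone, a threshold of 0.1 and each library left out. Voom weights and leaving out TBI replicates 1 and 3 were added after seeing the data.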

Additional observations from a re-analysis of the deposited data

How the results depend on the processing

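Under 22 other settings no single-gene call changed direction. Between 3pRNA + TBI and TBI, the count of genes called higher (1, Tigar) was 0 with 2 groups alone and 0 without TBI replicates 1 and 3, and 0 to 1 with each library left out. The count called lower (1, Apaf1) was 0 without a variance trend, 0 without TBI replicates 1 and 3, 4 at a threshold of 0.1, and 0 to 2 with each library left out. The median change there (-0.080) was 0.033 with equal totals and -0.127 to -0.001 with each library left out. Between blockade and 3pRNA + TBI, the count called higher was 0 to 1 with each library left out, where Ckap2 was called without TBI replicate 2. Between blockade and TBI, the median (-0.050) was 0.053 with equal totals and -0.141 without TBI replicates 1 and 3. Of the other called genes, Ddit4 and Tap1 were called in 11 and Irf9 and Bid in 8 of the 12 settings that change neither a single library nor the threshold. The cause was not tested, except that fits with fewer libraries have fewer degrees of freedom.

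With the replicate number as a block, the count called lower after 3pRNA was 3, with Btg2 (adjusted p = 0.029) and Zmat3 (adjusted p = 0.032) besides Apaf1. Of all genes, 642 were called higher and 581 lower with this block. The deviations of same-numbered mice correlated at -0.193 to 0.345 over 9 pairs, and those of differently numbered mice at -0.42 to 0.23 over 18 pairs. Same-numbered pairs of numbers 2 and 3 were all positive, at 0.067 to 0.345, and those of number 1 lay between -0.193 and 0.068. Not every mouse correlated best with its own number. The labels give no pairing, so the numbers were not taken as pairs in the main fit. Whether they mark a shared batch was not tested.

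Limits are that the planned count models (edgeR and DESeq2) were not run on reads rebuilt from the scaled values, and that no unirradiated mice were compared. With the main scaling, 3 mice a group leave changes of 1.5-fold or more open for 8 of the 35 genes after 3pRNA. Smaller changes are open for all that were not called.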
